A study of Drosophila melanogaster with 3 samples.

Results

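The weak candidate sites at promoters were 4388 of the 15633 unretained candidates (28.1%, 95% exact Clopper-Pearson interval 27.4 to 28.8) in a chromatin immunoprecipitation sequencing (ChIP-seq) experiment on the Drosophila protein CG1647. They made up 22.8% of the 19204 candidate peaks that the authors called on the pooled replicates. Each overlapped no peak of the authors' retained list, which holds the candidates that passed their filter on the irreproducible discovery rate (IDR), a measure of how well peaks repeat between replicates. Each also had its summit within 500 bp of the annotated start of a transcript of a protein-coding gene. The sites were thus chosen by the authors' ranking of pooled signal and by distance to a start, and neither property is a finding. The retained list held 3123 peaks, of which 1724 met the same distance rule, and these served for comparison. A further 448 pooled candidates overlapped a retained peak without being one and were left out.

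All values came from 1 group of 3 biological replicates with no second condition. The material was whole embryos collected 0 to 24 h after laying, male and female together, from 1 transgenic line that stably expresses CG1647 with GFP at its C-terminal end. The fusion protein was precipitated with an antibody against GFP from sonicated chromatin with fragments of 200 to 800 bp, and peaks were called against a control alignment. Whole embryos mix every tissue and stage, so binding in a few cells and low occupancy in many cannot be told apart. The labels give separate biological replicates but not whether the embryos came from separate cages, so spreads between replicates may be partly technical. Read counts were not used here, the depth of each replicate is unknown, and the intervals allow for counting error alone. Peaks and genes within a list are not independent of each other.

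CG1647 belongs to the ZAD zinc finger proteins, a large insect family of DNA-binding proteins with few members studied in detail. In Drosophila, promoters of widely expressed genes often carry the DRE, which Dref and the insulator protein BEAF-32 recognise, or Motif 1, the site of the transcription factor M1BP, whereas promoters of regulated genes more often carry a TATA box or an initiator. Candidate lists made for IDR reach below the level at which peaks repeat, so that weak binding and background are both included.

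The strongest weak sites with each of 7 promoter motifs, and 1 site that held none of the 13 motifs searched, show what these promoters look like. Each line gives the part of the 200 bp around the summit that lies outside annotated exons, on the plus strand of dm6, read from the RefSeq copy of that assembly. Capitals mark DRE (TATCGATA) and Motif 1 (GGTCACAC) at wapl, GAGA elements (GAGAG) and the BEAF-32 core (CGATA) at CG6231, Motif 7 at Rpp14a, the E-box CAGCTG at RpS14b and the CTCF core (AGNNGGCGC) at mub, on either strand. The Idua site has no capitals because none of the motifs was found.
wapl (chrX:2158984-2159126): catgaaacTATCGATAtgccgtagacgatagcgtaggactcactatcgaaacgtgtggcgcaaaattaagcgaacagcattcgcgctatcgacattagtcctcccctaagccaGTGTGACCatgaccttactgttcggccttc
CG6231 (chr3R:19623798-19623997): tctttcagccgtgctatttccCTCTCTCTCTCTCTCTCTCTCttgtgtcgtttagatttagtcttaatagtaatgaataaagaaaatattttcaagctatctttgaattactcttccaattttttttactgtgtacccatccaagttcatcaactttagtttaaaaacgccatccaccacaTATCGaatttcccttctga
Rpp14a (chr3R:30056676-30056858): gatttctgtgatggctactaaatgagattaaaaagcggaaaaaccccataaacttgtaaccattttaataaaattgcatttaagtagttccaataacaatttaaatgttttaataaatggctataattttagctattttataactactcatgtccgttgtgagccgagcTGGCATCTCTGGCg
RpS14b (chrX:7934788-7934897): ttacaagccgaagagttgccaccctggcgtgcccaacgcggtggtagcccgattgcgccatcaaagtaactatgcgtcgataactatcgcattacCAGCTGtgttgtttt
mub (chr3L:21879478-21879576): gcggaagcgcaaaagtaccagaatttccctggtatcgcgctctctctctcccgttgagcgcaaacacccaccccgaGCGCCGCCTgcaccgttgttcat
Idua (chr2L:11113220-11113419): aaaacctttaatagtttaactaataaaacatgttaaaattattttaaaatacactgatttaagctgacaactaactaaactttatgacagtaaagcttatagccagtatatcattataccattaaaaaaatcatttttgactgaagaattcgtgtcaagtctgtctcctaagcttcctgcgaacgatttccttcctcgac
At wapl, whose protein releases cohesin from chromosomes, the DRE lay 31.0 bp from the summit and the summit 44 bp upstream of the start. The CG6231 site had its GAGA elements in 1 unbroken run of CT repeats. RpS14b, a gene for a protein of the small ribosomal subunit, had its E-box 2.0 bp from the summit. A match describes these letters only and is not evidence that a factor binds there.

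Signal, the authors' peak height score, chose the sites, so it is given as a description. It ran from 52.3 to 126 with a median of 71.0 and quartiles of 60.3 and 88.5, while the retained promoter peaks started at 126 and had a median of 193. The cut was a clean step in signal. The strongest weak site, at CG6231, stood at 126.135 and the weakest retained promoter peak, at Mcad, an acyl-CoA dehydrogenase gene, at 126.246. CG3164 (126.287), ScsbetaA (126.297), Mec2 (126.315) and Rtnl1 (126.322) followed just above the cut. Only 252 weak sites (5.74%) had an authors' q-value of at most 0.05, and 527 (12.01%) at most 0.1. Their median q-value was 0.596, and all 1724 retained promoter peaks were at or below 0.0223. Every weak site was 390 bp wide.

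The strongest 10 weak sites took in genes of many functions. Behind CG6231 came Rbf, a retinoblastoma-family repressor of cell cycle genes, at a signal of 126.128, with the summit 289 bp upstream of the start. Np, a transmembrane serine protease gene, had 126.024, and Clic, a chloride intracellular channel gene, 126.021. The site shared by CG7950 and Rpp14a, which encodes a subunit of ribonuclease P, had 125.986. Galphao, a G protein subunit gene (125.881), arr, the Wnt co-receptor gene (125.799), AP-2alpha, an adaptor of endocytosis (125.79), mura, a ubiquitin ligase gene (125.785), and wapl (125.735) completed them. At the other end stood CG6484 (52.3408), app (52.3365) and CG42553 (52.3358). Pooled signal has no replicate error, so values this close give no order.

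Most weak sites were also on the replicates' own candidate lists, which held 30000, 17977 and 30000 peaks. Replicate 1 had a candidate overlapping 82.5% of them, replicate 2 65.5% and replicate 3 88.9%, a mean of 78.9% ± 12.1 (SD, n = 3). Replicate 2, with the shortest list, was lowest, and recovery depends on where each list ends. The lists of replicates 1 and 3 had exactly the same length, and whether this was a set limit was not examined. All 3 lists held 2079 of the sites (47.4%), 2 lists held 1853, 1 list held 449, and 7 sites were in none. The retained promoter peaks were found at 99.8% ± 0.146 (SD, n = 3). The 11245 unretained candidates away from promoters were found at 73.3% ± 10.98 (SD, n = 3), with 37.0% in all 3 lists, and their median signal of 63.7 was lower too. Recovery and signal come from the same reads as the pooled list and were not tested.

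Recovery fell in step with signal. In the highest of 10 deciles of signal 92.3% of the weak sites were in all 3 lists, in the fifth decile 47.7%, and in the lowest 15.98%. Taking the best 3123 peaks of each replicate, the length of the retained list, 324 weak sites were among them in replicate 1, 243 in replicate 2 and 378 in replicate 3. In none of the replicates were 3562 sites, in 1 replicate 712, in 2 replicates 109 and in all of them 5.

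**Figure D1:**
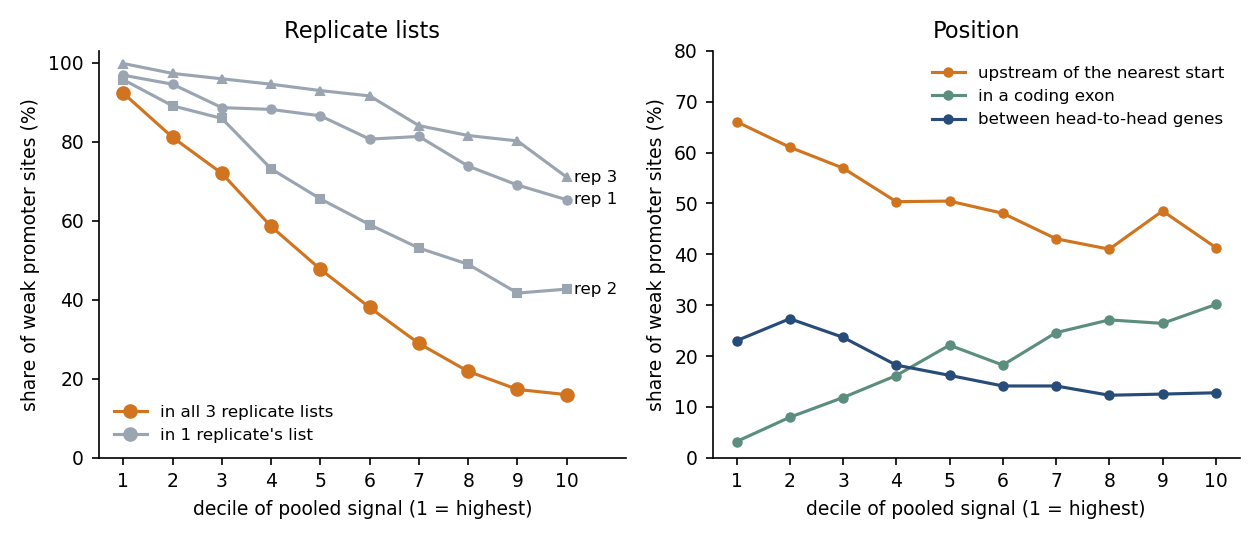
Left, share of the 4388 weak promoter sites (%) found in each replicate's candidate list (grey) and in all 3 (orange), by decile of pooled signal from highest (1) to lowest (10). Right, share (%) upstream of the nearest start, in a coding exon and between head-to-head genes by the same deciles. Sites in all 3 lists fell from 92.3% to 15.98%, and sites in coding exons went from 3.19% to 30.1%.

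The 5 sites with the best worst rank over the replicates were at 4 loci. The site between Bdp1, which encodes a part of the RNA polymerase III initiation factor, and CG6565 ranked 111, 57 and 121 in replicates 1, 2 and 3 although its pooled signal was only 58.7. Its summit lay 227 bp from a retained summit. A replicate peak that overlapped a weak site also overlapped a retained peak at 5 sites in replicate 1, 3 in replicate 2 and 6 in replicate 3. Without such peaks recovery was 78.8% ± 12.1 (SD, n = 3), with 2071 sites in all lists. A pair of sites at Irk1, a potassium channel gene, with pooled signals of 103 and 79.0, shared the same replicate peaks, at ranks 2434, 2517 and 2164. GstT4, a glutathione S-transferase gene, ranked 1682, 2622 and 2581, and Amun, 111 bp downstream of its start, 2479, 3105 and 2508.

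The ranks of the strongest 3 sites come from lists of unequal length. CG6231 ranked 11418 in replicate 1, 3075 in replicate 2 and 2911 in replicate 3. Rbf ranked 3606, 4798 and 3532, the most even of the strongest 3, and Np 3880, 7631 and 1669. Rpp14a, lower among the strongest 10, was absent from the list of replicate 1 and ranked 1767 and 1796 in replicates 2 and 3.

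Weak promoter sites were spread over both sides of the start, whereas retained promoter peaks lay mostly upstream. Of the weak summits 2224 of 4388 were upstream of the nearest start (50.7%, 95% interval 49.2 to 52.2), and of the retained 1414 of 1724 (82.0%, 80.1 to 83.8). The odds ratio was 0.226 (95% interval 0.197 to 0.259; Fisher's exact test over peaks, two-sided, p = 6.87e-120). The median weak summit lay 3 bp upstream and the median retained summit 78.5 bp upstream. Each replicate's own list was sorted into the same classes by overlap with the retained list. The weak class held 5677, 3406 and 6560 promoter peaks in replicates 1, 2 and 3, and the retained class 2050, 1948 and 2075. These replicate classes, used throughout, are thus not the same sets as the 4388 and 1724 pooled sites. The upstream share was 41.3%, 58.3% and 47.9% for weak sites and 75.9%, 81.8% and 77.6% for retained ones. The means were 49.1% ± 8.56 and 78.4% ± 3.05 (SD, n = 3), the groups did not overlap, and the exact permutation test gave p = 0.1, the smallest that 3 against 3 allows. That test ignores that both classes come from the same 3 replicates. Within replicates the difference was -29.3 ± 5.54 percentage points (SD, n = 3), and an exact sign-flip test of these differences gave p = 0.25, the smallest that 3 pairs allow.

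Weak summits reached farther into the gene. More than 200 bp downstream of the start lay 961 weak summits (21.9%) and 56 retained ones (3.25%). In the 100 bp just upstream of a start were 22.4% of weak and 40.4% of retained summits. Between 400 and 500 bp downstream the shares were 7.54% and 1.57%. The upstream share fell with signal, from 66.1% in the highest decile to 41.3% in the lowest, so that even the strongest decile was below the retained peaks.

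**Figure D2:**
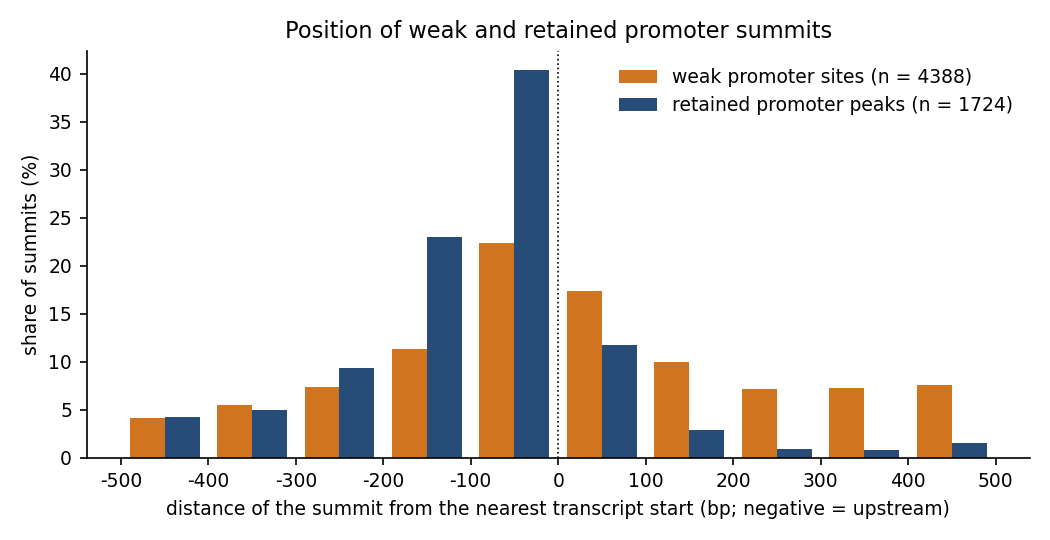
Share of summits (%) per 100 bp of distance from the nearest transcript start, negative upstream, for weak promoter sites (orange, n = 4388) and retained promoter peaks (blue, n = 1724). The retained peaks reach 40.4% in the bin just upstream of the start, and weak sites hold 7.54% in the last bin downstream against 1.57%.

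The annotated place of the summit differed accordingly. Weak summits lay in coding exons at 824 sites (18.8%) against 6 retained peaks (0.348%). In noncoding parts of exons they numbered 1297 (29.6%) against 378 (21.9%). Introns held 929 (21.2%) against 378 (21.9%), and intergenic DNA 1338 (30.5%) against 962 (55.8%). The share in coding exons went from 3.19% in the highest decile of signal to 30.1% in the lowest. MED24, a Mediator subunit gene, is an example in a coding exon, with its summit 182 bp downstream of the start and a signal of 121. These shares follow from distance in part and were not tested.

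Head-to-head gene pairs, whose starts face away from each other, were less frequent at weak sites. The starts of such a pair, at most 1000 bp apart, were both within 500 bp of 765 weak summits (17.4%, 95% interval 16.3 to 18.6) and 657 retained ones (38.1%, 35.8 to 40.4). The odds ratio was 0.343 (0.303 to 0.389; Fisher's exact test, two-sided, p = 1.45e-62). The replicates gave 16.02% ± 3.90 for weak and 38.3% ± 1.55 for retained peaks (SD, n = 3; exact permutation p = 0.1, the smallest possible), and the groups did not overlap. Among upstream summits only, a comparison added after seeing the data, the share of weak sites was still 16.9 percentage points smaller than that of retained ones (21.5% against 38.5%, Fisher's exact p = 5.91e-28). Weak pairs included Cdk7 with snf (signal 125), Taf13 with nesd (125) and Acf with Mccc1 (125). The site at Cdk1 and mRpS7 had 119.

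DNA around weak summits was richer in G and C. The 200 bp around the summit held 44.2% ± 9.26 G and C at weak sites and 38.2% ± 6.82 at retained promoter peaks (SD over 4388 and 1724 peaks), a difference of 6.01 percentage points (permutation test with 100000 resamples, two-sided, p = 1e-05, the smallest they can give). Per replicate the means were 46.2, 42.6 and 43.7% against 39.3, 37.96 and 38.5%, with no overlap (44.2 ± 1.86 against 38.6 ± 0.686, SD, n = 3; exact permutation p = 0.1, the smallest possible). Position and composition moved together. Weak summits upstream of the start had 40.5% and downstream 48.0%, while retained summits had 37.6% and 40.9%. Among upstream summits only the difference was 2.91 points (permutation p = 1e-05), under the 6.01 of all summits.

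Of 13 motifs known from fly promoters, searched as exact letters on both strands in the 200 bp around the summit, 7 differed between weak and retained promoter summits (Fisher's exact test, Benjamini-Hochberg adjusted over 13). DRE occurred at 5.22% of weak and 8.58% of retained summits (odds ratio 0.586, 95% interval 0.473 to 0.726, adjusted exact p = 6.57e-06). The BEAF-32 core, which every DRE holds, was at 33.8% against 41.4% (odds ratio 0.723, adjusted exact p = 1.52e-07). Motif 6 (GTATATTT or GTATTTTT) was at 6.22% against 9.05% (0.666, adjusted exact p = 0.000387) and Motif 7 at 6.43% against 13.4% (0.444, 0.369 to 0.533, adjusted exact p = 2.44e-16). The TATA box (TATAAA) was at 21.2% against 30.5% (0.616, adjusted exact p = 5.67e-13). The 2 that were more frequent at weak summits were GAGA, the site of GAGA factor, at 26.2% against 21.8% (1.28, 1.12 to 1.46, adjusted exact p = 0.000576), and the Zelda site CAGGTA, bound by the pioneer factor of early embryos, at 5.22% against 3.77% (1.40, adjusted exact p = 0.0311). The Zelda call was lost in 9 alternative settings. These weak windows were 6.01 percentage points richer in G and C, and the part of this in the motif shares was not tested.

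The lower shares of Motif 7 and the TATA box passed the test in every setting run. In the replicates Motif 7 was at 5.77% ± 1.45 of weak and 12.3% ± 0.548 of retained summits (SD, n = 3), with 5.11, 7.43 and 4.77% against 12.2, 12.9 and 11.9%. The TATA box gave 21.1% ± 3.82 against 30.0% ± 1.55. The values of both motifs did not overlap between the classes (exact permutation p = 0.1 each, the smallest possible). GAGA was at 25.1% ± 2.28 against 23.1% ± 1.63, and the values overlapped across replicates (exact permutation p = 0.5, which ignores the pairing). Within each replicate GAGA was higher at weak summits, by 2.01 ± 1.29 percentage points (SD, n = 3; exact sign-flip p = 0.25, the smallest possible). Only Motif 7, the TATA box and GAGA passed the threshold among upstream summits, and likewise in the weak sites above the median signal. Among pooled candidates held by the lists of both replicates 2 and 3, only Motif 7 and the TATA box passed it.

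Motif 1 (4.603% against 5.39%), the initiator (TCAGTT, 13.8% against 11.8%), the CTCF core (2.76% against 2.61%), the E-boxes CACGTG (2.87% against 2.84%) and CAGCTG (13.1% against 14.4%) and the Pho core (GCCATNTT, 3.56% against 4.47%) did not pass the test. The first 2 and CAGCTG passed it in other settings. Motif 1 was less frequent at weak summits with 1000 bp to a start (odds ratio 0.668, adjusted exact p = 0.005) and with a 400 bp window (0.679, adjusted exact p = 0.000235). The initiator was more frequent with 200 bp to a start (1.39, adjusted exact p = 0.00296) and with a 100 bp window (1.32, adjusted exact p = 0.048). CAGCTG was less frequent with 200 bp to a start (0.811, adjusted exact p = 0.0479), with canonical transcripts only (0.806, adjusted exact p = 0.03) and with a 400 bp window (0.790, adjusted exact p = 0.000567). DRE and Motif 7 became rarer with falling signal, DRE from 9.57% in the highest decile to 2.51% in the lowest and Motif 7 from 12.5% to 3.88%. GAGA began at 24.4% and ended at 25.6%. None of the 13 motifs was found at 852 weak summits (19.4%) and at 239 retained ones (13.9%). Where a weak site held a DRE, the median distance from its summit to the nearest one was 39.0 bp, as at retained peaks, and 61.6% and 64.9% of these sites had it within 50 bp.

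**Figure D3:**
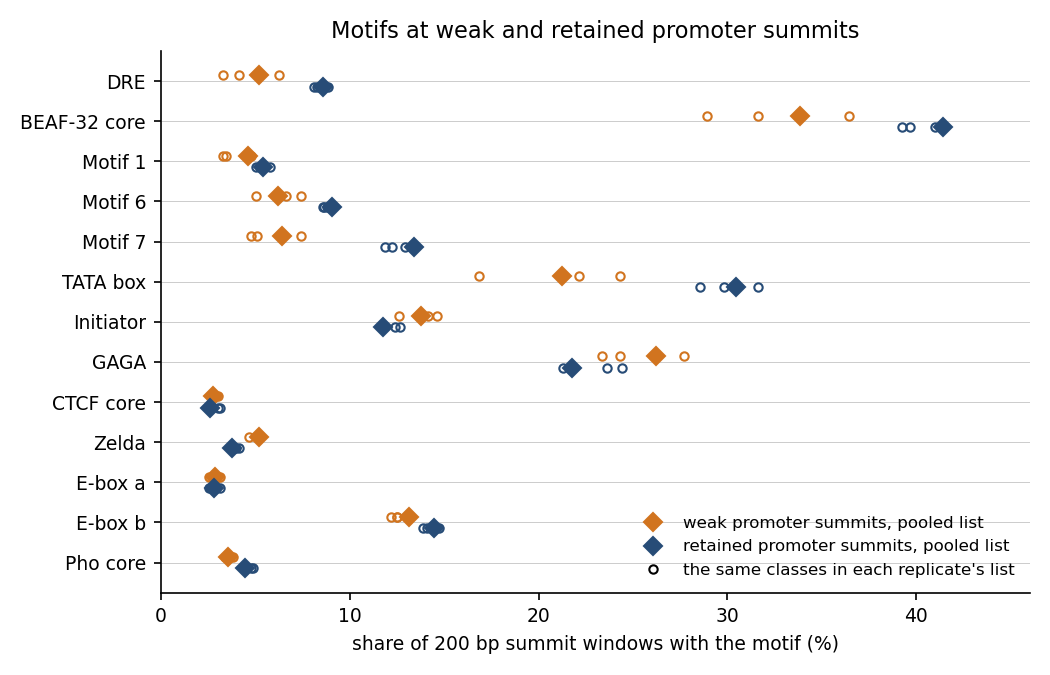
Share (%) of 200 bp summit windows holding each of 13 motifs, for weak (orange) and retained (blue) promoter summits of the pooled list (diamonds) and of each replicate's own list (open circles, n = 3 each). E-box a is CACGTG and E-box b CAGCTG. Motif 7 stands at 6.43% and 13.4% in the pooled list with no overlap of the replicates, while the GAGA circles overlap, although weak was above retained in each replicate.

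Genes whose only promoter site was weak were then set against genes with no candidate at all. Of 13945 protein-coding genes 4238 had at least 1 weak site within 500 bp of a start. Of these, 378 also had a retained peak, and 3860 had weak sites only (27.7% of all genes). A retained peak was found at 2266 genes (16.2%), no candidate at 7810, and 9 had other candidates only. Motifs were counted from 150 bp upstream to 50 bp downstream of the start of each gene's Ensembl canonical transcript. The window thus did not depend on where a summit lay. The weak site of a gene could lie at another of its starts, outside the window counted. In this comparison 11 of 13 motifs differed, 9 more frequent at genes with only weak sites and 2 less frequent (Fisher's exact test, two-sided, adjusted over 13).

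The largest odds ratios were those of Motif 1, Motif 7 and DRE, which are known from widely expressed genes. DRE was at 11.4% of 3859 genes with only weak sites and at 4.89% of genes without a candidate (odds ratio 2.50, 95% interval 2.17 to 2.89, adjusted exact p = 2.40e-35), with 11.7% at genes with a retained peak and 7.80% at all genes. Motif 1 was at 10.7% against 3.94% (2.93, 2.51 to 3.41, adjusted exact p = 2.52e-42), with 10.06% at retained genes and 6.81% at all. Motif 7 was at 10.3% against 3.89% (2.83, adjusted exact p = 3.94e-39), with 15.8% at retained genes and 7.59% at all. The BEAF-32 core was at 45.8% against 33.1% (1.71, adjusted exact p = 2.13e-39; all genes 38.8%), Motif 6 at 10.9% against 6.67% (1.72, adjusted exact p = 1.78e-14; all genes 8.41%) and the E-box CAGCTG at 16.9% against 11.4% (1.57, adjusted exact p = 2.35e-15; all genes 14.2%).

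Smaller excesses were seen for GAGA, the E-box CACGTG and the CTCF core. GAGA was at 25.3% against 21.3% (odds ratio 1.25, adjusted exact p = 2.57e-06; all genes 22.9%), CACGTG at 3.65% against 2.50% (1.48, adjusted exact p = 0.000808; all genes 3.03%) and the CTCF core at 2.25% against 1.68% (1.35, adjusted exact p = 0.0412; all genes 2.02%). The call of the CTCF core was lost in 4 of the alternative settings. That of GAGA was lost when sites had to be in the lists of replicates 2 and 3 (odds ratio 1.11, adjusted exact p = 0.0669). The TATA box was less frequent, at 28.5% against 35.6% (0.721, 0.663 to 0.784, adjusted exact p = 2.28e-14; all genes 32.2%), and so was the initiator, at 18.8% against 24.3% (0.723, adjusted exact p = 2.93e-11; all genes 21.2%). Zelda (4.46% against 4.34%; all genes 4.31%) and Pho (3.89% against 4.01%; all genes 3.97%) did not pass. Genes with a retained peak had the TATA box at 27.0%, Motif 6 at 9.97% and the BEAF-32 core at 46.4%. Genes with only weak sites had 28.5%, 10.9% and 45.8%. The lower shares of the TATA box and Motif 6 at weak summits were thus not seen at gene starts, whereas that of Motif 7 was (10.3% against 15.8%). These contrasts with retained genes were not tested. The G and C content of the windows at gene starts was 41.3% ± 8.39 at genes with only weak sites and 40.3% ± 8.58 at genes without a candidate (SD over genes). Its part in the motif shares was not tested.

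The same contrast was made within each replicate's list. DRE was at 10.9% ± 0.824 of genes with only weak sites and 4.79% ± 0.733 of genes without a candidate, Motif 1 at 9.91% ± 0.509 against 3.93% ± 0.807 and Motif 7 at 9.92% ± 0.763 against 3.73% ± 0.487 (SD, n = 3 each). The TATA box gave 28.7% ± 0.783 against 36.0% ± 0.895. For each of these 4 motifs all replicates lay on the same side without overlap (exact permutation p = 0.1, the smallest possible). The 3 lists share the retained list that sorted them.

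**Figure D4:**
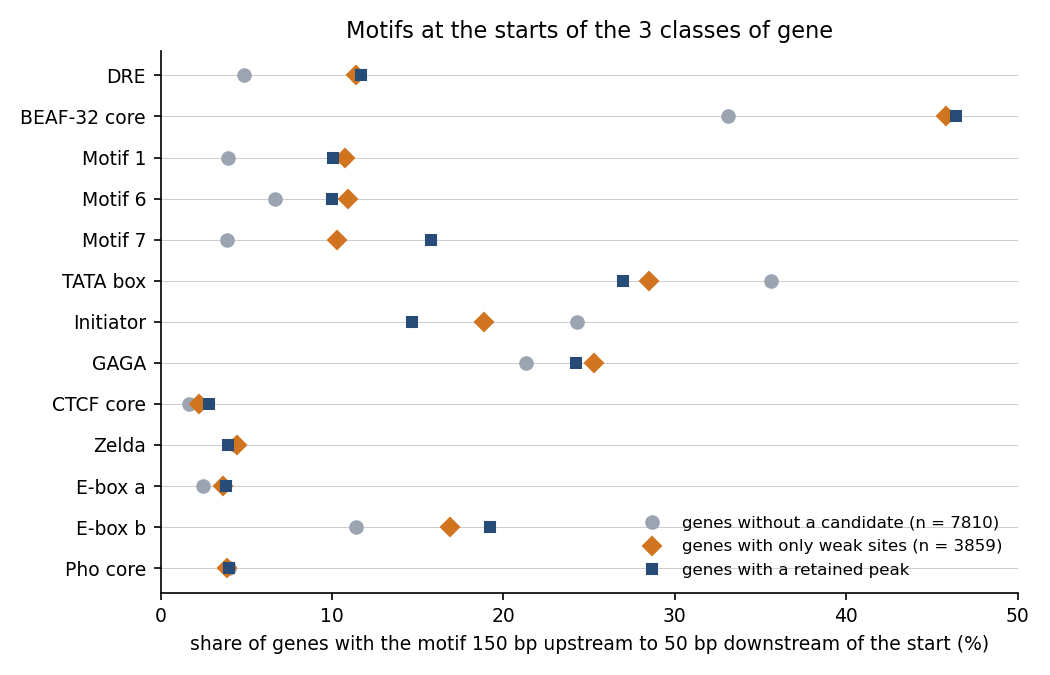
Share of protein-coding genes (%) with each of 13 motifs from 150 bp upstream to 50 bp downstream of the canonical transcript start. Shown are genes without a candidate (grey, n = 7810), with only weak sites (orange, n = 3859) and with a retained peak (blue). E-box a is CACGTG and E-box b CAGCTG. For DRE the first stands at 4.89%, the second at 11.4% and the third at 11.7%, and for the TATA box at 35.6%, 28.5% and 27.0%.

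A second set of letters came from the retained peaks themselves. The 20 words of 8 bases most in excess at all 3123 retained summits over flanking windows were counted at the same gene starts, and 14 were more frequent at genes with only weak sites than at genes without a candidate, none less frequent (Fisher's exact test, adjusted over 20). All 6 words that hold CGATA differed, with odds ratios from 2.06 to 3.01. They overlap DRE or the BEAF-32 core, and TATCGATA is DRE itself. Of the 9 words with other letters 8 differed. Among them CAGCCCTG, CATCTCTA and, on the other strand, CAGGGATG spell the core of Motif 7, CA[GT]CNCT[AG] (brackets hold alternative bases, N is any base). AGCCCTGG and, on the other strand, AGGGCTGC overlap that core. These words thus in part repeat the Motif 7 result, whereas CAACACTG and CAACCCTG do not spell its core. CAACACTG was at 3.73% against 1.19% (odds ratio 3.21, adjusted exact p = 8.82e-18; all genes 2.89%), CAGGGATG at 1.30% against 0.243% (5.30, adjusted exact p = 5.80e-11; all genes 0.789%) and CAACCCTG at 1.40% against 0.435% (3.23, adjusted exact p = 1.24e-07; all genes 1.06%).

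The 5 words that hold CAGTGTA or CACTGAG did not pass, with shares from 0.363% to 0.881% at genes with only weak sites and from 0.282% to 0.666% at genes without a candidate. CACTGAGA, the word with the highest ratio at retained summits, was at 0.570% against 0.666% of gene starts (odds ratio 0.866, 0.528 to 1.42, adjusted exact p = 0.689; all genes 0.717%). With 200 bp to a start it was less frequent at genes with only weak sites (0.465, adjusted exact p = 0.0198). ACACTGAG was more frequent when sites had to be in the lists of replicates 1 and 2 (1.86, adjusted exact p = 0.023, against 1.39 without this filter). ATACATCG, the other word without a call, passed in 4 settings, with odds ratios from 1.66 to 2.07. CACTGAGA stood at 6.08% of the 1399 retained summits away from promoters, at 1.74% of retained promoter summits and at 0.638% of weak ones. Unretained candidates away from promoters had CACTGAGA at 2.14%. CAACCCTG showed the other order, with 0.929% of retained summits away from promoters, 2.44% of retained promoter summits, 1.19% of weak ones and 0.249% of the unretained candidates elsewhere. Because the words were chosen at retained peaks, their shares at retained summits are descriptions.

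The strongest weak site and the strongest retained promoter peak with each of these words are shown with the word in capitals, on the plus strand of dm6, again without annotated exons.
Fim, weak site (chrX:17292025-17292224): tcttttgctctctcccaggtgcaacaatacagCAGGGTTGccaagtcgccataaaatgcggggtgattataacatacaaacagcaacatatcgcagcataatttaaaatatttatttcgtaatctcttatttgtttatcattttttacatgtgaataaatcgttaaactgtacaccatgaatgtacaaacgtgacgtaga
RpL34b, retained peak (chr3R:9401227-9401395): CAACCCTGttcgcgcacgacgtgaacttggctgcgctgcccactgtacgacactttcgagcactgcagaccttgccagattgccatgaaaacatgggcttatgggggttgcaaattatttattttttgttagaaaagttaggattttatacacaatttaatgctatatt
CG5910, weak site (chr3L:20442213-20442412): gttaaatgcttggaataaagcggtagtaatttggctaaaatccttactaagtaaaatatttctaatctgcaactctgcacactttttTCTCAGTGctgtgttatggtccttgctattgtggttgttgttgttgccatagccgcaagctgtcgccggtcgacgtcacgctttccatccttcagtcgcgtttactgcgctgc
brwl, retained peak (chr2L:9568786-9568868): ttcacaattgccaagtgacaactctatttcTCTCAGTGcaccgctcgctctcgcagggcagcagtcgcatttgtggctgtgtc
Fim, which encodes the actin-bundling protein fimbrin, had a signal of 124 and ranks of 5911, 3249 and 6400 in replicates 1, 2 and 3. RpL34b, a gene for a protein of the large ribosomal subunit, stood at 558 with ranks of 222, 122 and 159. CG5910 had a signal of 96.8 and ranks of 23039, 6811 and 2697, and brwl a signal of 624.

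Which genes had only weak sites was described by function, with 33 lists set beside the 27.7% of all genes. In 25 lists the share was above that figure. The lists were not tested, and a share near the background is not a result about a list. A site counted for every gene with a start within 500 bp, so some sites named below lie nearer another gene. Among these, the sites of wls, Xpd, COX7C, pen-2, AspRS and MetRS lay nearest to Adck5, LSm1, oys, Ote, Nmda1 and CG15084, in this order. A gene with a retained peak cannot count as having only weak sites, so the share also falls where many genes are retained (16.2% of all genes). Of the 1337 symbols 10 found no gene and 1 was a second symbol of a gene already in its list.

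Genes of translation and energy supply stood on both sides of the background. Cytoplasmic ribosomal protein genes had only weak sites at 24 of 93 (25.8%), with 57 (61.3%) retained. RpS14b, at 125, and RpL36A, at 121 and 4 bp downstream of its start, had the highest weak signals. Mitochondrial ribosomal protein genes had 31 of 75 (41.3%), led by mRpL27 (121), which shares its site with CG15435, and mRpL51 (120). Aminoacyl-tRNA synthetase genes had 17 of 33 (51.5%), with AspRS at 125 and MetRS at 104.9. Translation initiation factor genes had 13 of 44 (29.5%), among them eIF4E1, the cap-binding protein gene, with its summit exactly on a start and a signal of 120, and eIF2D (114.9). Oxidative phosphorylation genes had 34 of 96 (35.4%), led by UQCR-14 (126) and COX7C (123), and vacuolar ATPase genes 5 of 33 (15.2%), with 10 (30.3%) retained, among the former Vha68-2 (105.02) and Vha26 (96.8).

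Proteasome subunit genes, for protein breakdown, had 21 of 48 with only weak sites (43.8%), led by the gene of the ATPase subunit Rpt1 (118) and by Rpn1 (116). Autophagy genes had 8 of 20, with Atg13 at 123, and 7 (35.0%) retained. Heat shock protein genes had 7 of 26 (26.9%) with 5 (19.2%) retained, among the former Hsp22 (101) and Hsp110 (94.9).

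In the nucleus, RNA polymerase II and splicing genes had 19 of 34 (55.9%), with snf, a spliceosomal RNA-binding protein gene, and B52, a splicing factor gene, at 125 and 124. General transcription factor genes had 14 of 31 (45.2%), among them Taf13 (125) and Xpd, the TFIIH helicase gene (125). Mediator genes had 7 of 29 (24.1%), among them Cdk8 at 117, and 11 (37.9%) retained. Histone variant and chromatin assembly genes had 10 of 19 (52.6%), led by Acf (125) and the histone chaperone gene asf1 (123). Polycomb group genes had 7 of 21 (33.3%), with esc at 116, and trithorax group genes 7 of 20 (35.0%), with trx at 117 and osa at 97.6. Insulator and boundary protein genes had 8 of 19 (42.1%), among them M1BP itself (100) and mod(mdg4) (98.0). Nuclear pore genes had 9 of 22 (40.9%), with Nup107 at 107.

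Cyclin, Cdk and Cdc25 genes had 12 of 23 with only weak sites (52.2%), among them Cdk7, at 125, and the mitotic kinase gene Cdk1, at 119. DNA replication genes, at 12 of 36 (33.3%), were near the background, led by Rbf (126) and Sld5 (125), the latter in a pair with CG14543.

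Wnt and Hedgehog pathway genes had 13 of 23 (56.5%), led by arr (126) and wls, needed for Wnt secretion (115.1). Ecdysone response genes had 9 of 16 (56.2%), led by the hormone receptor gene EcR (120), with MsrA at 98.1. Hippo and TOR pathway genes had 10 of 24 (41.7%), with sd at 113 and mats at 92.9, and 8 (33.3%) retained. Notch pathway genes had 6 of 18 (33.3%), with the gamma-secretase genes pen-2 (111) and Psn (103), and 8 (44.4%) retained. Dorsoventral genes had 11 of 21 (52.4%), led by pnr (102) and rho (91.4). Segmentation genes had 9 of 24 (37.5%), with hry (100) and ptc (98.5), and 1 retained. Hox genes had 3 of 8 (37.5%) and no retained peak, with Dfd at 96.5 and pb at 80.1. The medians of the weak signals were 63.1 for dorsoventral, 80.5 for segmentation and 80.1 for Hox genes.

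Circadian clock genes had 7 of 14, with cry, the photoreceptor gene, at 118 and Pdp1 at 105.3. Germline and piRNA pathway genes had 10 of 28 (35.7%), with exu and stau, both needed to place messenger RNAs in the egg, at 111 and 109. Muscle genes had 5 of 16 (31.2%), with Tm1 (119) and how (79.3), and nervous system genes 4 of 22 (18.2%), with scrt (104) and Syx1A (96.4), and 1 retained.

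Chemosensory receptor genes had only weak sites at 10 of 180 (5.56%) and cuticular protein genes at 15 of 122 (12.3%), with 1 and 0 retained. Cytochrome P450 genes had 17 of 88 (19.3%) and 1 retained. These 3 lists of smell and taste receptors, cuticle and detoxification genes had few genes in either class. The highest of these sites, of the receptor gene Ir60e (124), is shared with CG13585 and lay nearest to the start of that gene. Gr39a stood at 74.9, the cuticle genes Cpr35B at 70.3 and Lcp9, shared with CG3594, at 70.2, and Cyp317a1 at 102 and Cyp6v1 at 80.1.

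**Figure D5:**
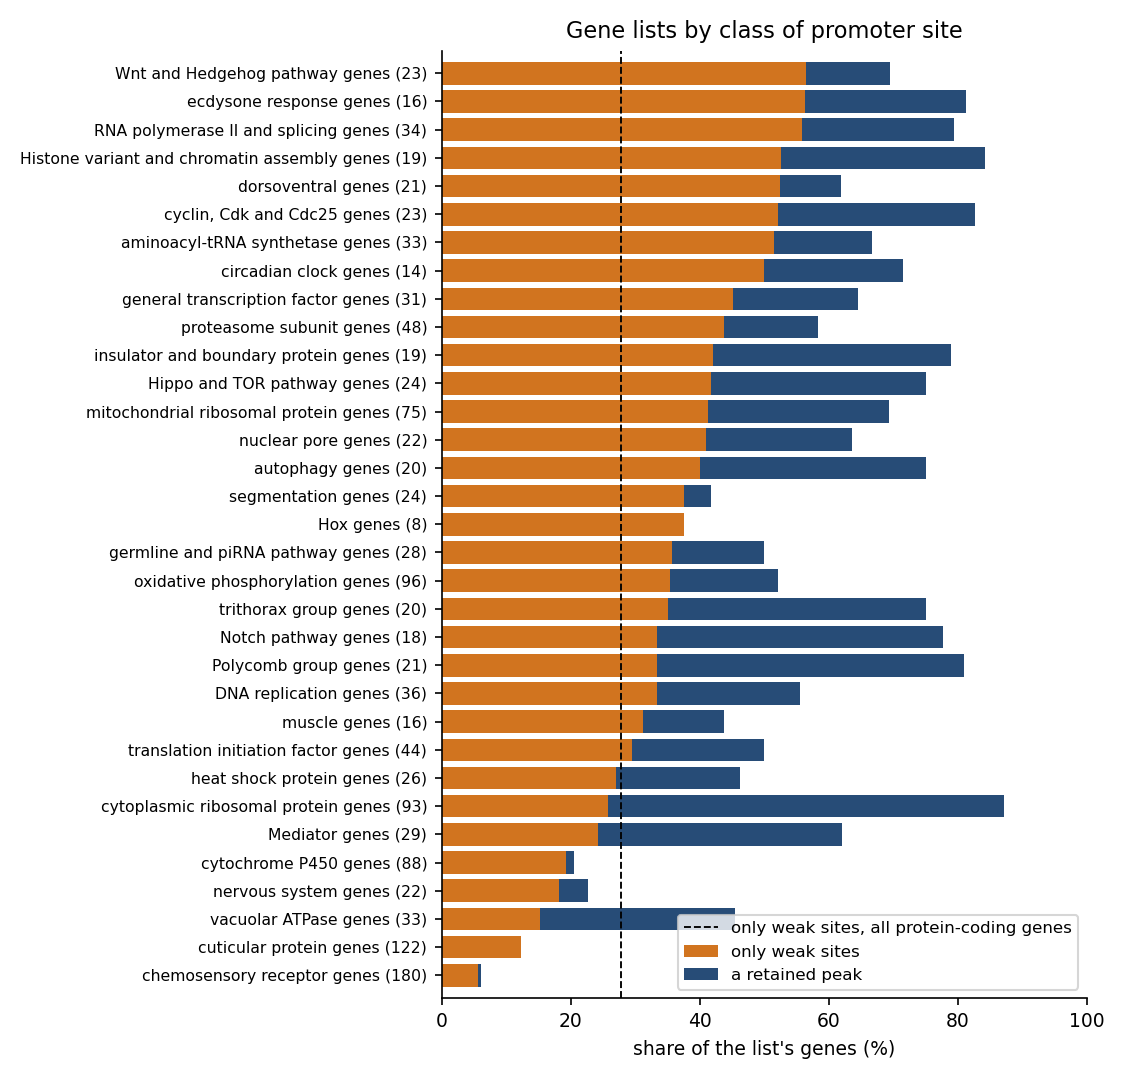
Share of the genes of 33 lists (%; number of genes found in brackets) with only weak promoter sites (orange) and with a retained promoter peak (blue, added to the right). The dashed line is the 27.7% of all protein-coding genes with only weak sites. Wnt and Hedgehog pathway genes (56.5%) stand at the top and chemosensory receptor genes (5.56%) at the bottom.

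Weak and retained sites met at 378 genes. The strongest of these weak sites were those of AP-2alpha (126), Nmda1 (125), Alp12 and CG13085, which share 1 site (124), and CG5953 (124). They lay 1936, 1288, 1942 and 1390 bp from the nearest retained summit. In all, 296 weak sites (6.75%) were within 1000 bp of a retained summit, and the median distance was 8368 bp. CG1647 itself had a retained peak and no weak site.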

How the data were processed

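CG1647-GFP ChIP-seq peaks from 3 embryo replicates were analysed as deposited on dm6. Per the labels and descriptions deposited with each library, candidate lists were made against a control alignment as input for IDR. The aligner, the peak caller with its version and the IDR threshold were not given in the sources used here. The authors' lists hold a signal value per peak, the deposited −log10 of the q-value and the summit. All arm ends fitted the RefSeq copy of release 6, from which sequences came. Genes were those of Ensembl release 115. The dm3 lists were not used here.

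Summits within 500 bp of a protein-coding transcript start counted as promoter sites, and 1 bp of overlap joined peaks. Shares were compared with Fisher's exact test, two-sided, with Woolf intervals after adding 0.5, and adjusted by Benjamini-Hochberg at 0.05 within each family; G and C content by permutation. The tests were also run on simulated sequences. Python 3.11.15, numpy 2.4.6, pandas 2.3.3 and scipy 1.17.1 were used. Replicate peaks were called weak where they overlapped no retained peak. Words were counted at summits and 500 bp away, with at least 20 peaks each.

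Members and lists were chosen with earlier results of these data known. Named were the 10 strongest and 3 weakest sites, the 5 with the best worst replicate rank, up to 2 genes with only weak sites per list, the 5 strongest genes with both classes, the 3 with most sites, and CG1647. Sequences are of the strongest site off arm 2R with the motif or word in a stretch free of exons; those with words, and genes named outside the rule, were chosen after their values were seen. Alternatives are given in the closing section.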

Additional observations from a re-analysis of the deposited data

How the results depend on the processing

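In 3 settings pooled candidates counted only if the lists of 2 given replicates both held them. The pooled and retained lists still rested on all 3 replicates, so this filter does not leave a replicate out. It favours strong sites, because recovery fell with signal. With it the promoter share of unretained candidates, 28.1%, was 30.2% to 32.7%. The share was 17.2% with 200 bp and 41.8% with 1000 bp to a start. It was 21.9% with canonical transcripts only and 26.2% without weak sites near a retained summit. The upstream, head-to-head and G and C differences passed the test in the same direction in every setting run. With the filter on 2 lists they were from -32.1 to -24.9, from -20.3 to -15.8 and from 4.38 to 6.17 percentage points. The head-to-head difference was smallest with 200 bp to a start (-12.5 points). Motifs that differed between weak and retained summits numbered 7, but 2 to 7 with the filter on 2 lists (2 with replicates 2 and 3). They numbered 3 in weak sites above the median signal and 3 among upstream summits only, a setting chosen after seeing the data. The cause was not tested. The counts of 11 motifs and 14 words at gene level were within 1.5 times in all settings. Of the motifs and words with a call, 26 values in alternatives missed the threshold with the same direction, 9 of them for Zelda and 5 for Motif 6 at summits. For the 14 motifs and words without a call, 166 alternative values were computed: 13 passed the threshold in the direction of the value reported and 28 had an odds ratio on the other side of 1, 0 of them past the threshold. No paired analysis was possible because there is only 1 group of samples. Weak and retained peaks of the same replicate were paired instead, and within replicates the upstream share differed by -29.3 ± 5.54, the head-to-head share by -22.3 ± 2.37 and G and C content by 5.55 ± 1.18 percentage points (SD, n = 3; exact sign-flip p = 0.25 each, the smallest for 3 pairs). The p-values rest on peaks or genes, which are not independent, and 3 replicates against 3 cannot go below 0.1. Depth is unknown, so absence from a replicate list was not tested against it.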

Other observations

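Some genes had several weak sites. A single weak site was found at 3367 genes, 2 at 736, 3 at 100 and more at 35. SNF4Agamma, which encodes the gamma subunit of the AMP-activated protein kinase, and Svil, a supervillin gene, had 8 each, and Tm1, a tropomyosin gene, had 7. The 8 sites of SNF4Agamma had signals from 54.0 to 123, and 2 of them, at 123 and 100, shared the same peak in every replicate (ranks 6491, 3630 and 3535). Another 2, at 82.1 and 69.5, also shared theirs (ranks 2926, 6096 and 24251). Those of Svil ran from 52.9 to 111 and those of Tm1 from 56.2 to 119. Of all weak sites 647 overlapped another weak site, so members were not fully separate. Within reach of 2 genes lay 809 sites and of more than 2 genes 49.

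The weak sites were spread over the arms roughly as genes were. Arm 2L held 17.7% of them and 19.1% of genes, 2R 20.7% and 20.5%, 3L 19.96% and 19.6%, 3R 23.8% and 24.5%, chromosome 4 0.661% and 0.574%, and X 17.2% and 15.7%. Genes with only weak sites made up from 25.8% of the genes of 2L to 32.5% of those of chromosome 4, where they numbered 26 of 80. No test was made of these shares.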
